A study of Mus musculus with 45 samples.

Results

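The comparison described here sets mouse forelimb buds kept for 24 h in 50 µM bisphenol A against forelimb buds kept for 3 h in the same concentration. It holds 10 of the 45 RNA sequencing libraries of a limb culture study, 5 at each time, chosen by the dose and time in the sample titles. Genes were taken where both times list them, which gave 28505 genes, of which 16859 had enough reads to be tested and 11646 fell below the filter on low counts.

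In the study, limb buds were cultured with 10 or 50 µM bisphenol A or with vehicle, for 3, 24 or 48 h, with 5 libraries in each of the 9 groups. Bisphenol A is a building block of polycarbonate plastics and a weak ligand of estrogen receptors. The groups used here are 50 µM at 24 h, 50 µM at 3 h, dimethyl sulfoxide vehicle at 24 h and vehicle at 3 h, with 10 µM at the same 2 times as values beside them. All came from embryos of the outbred CD1 stock on gestation day 13, with forelimbs pooled and with limbs of both sexes in the same culture. No label names a transgene or a deletion. For the 50 µM libraries of 3 h one label field gives 24 hours where the title gives 3, and the treatment text of every sample speaks of a 3 h culture. The titles were followed in both cases. No label gives a sequencing date or batch or states whether the replicates of a group stem from different litters, and the p-values therefore speak only of how far these libraries scatter.

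Long bones of the limb begin as cartilage. Mesenchymal cells of the bud condense and turn on Sox9, their descendants lay down collagen II and aggrecan, and cells in the middle of each element stop dividing, enlarge and switch to collagen X before bone cells replace them. Muscle precursors, endothelial cells and macrophages enter the bud from outside, while tendon and the lining of the joints form from the limb's own mesenchyme under a layer of epidermis.

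The 50 µM libraries held 18321508 to 20993645 counted reads at 24 h and 18935484 to 24278672 at 3 h. Levels are given as CPM, counts scaled to the adjusted size of each library. They compare a gene between libraries but not genes of different length. Changes are given as the log2 of 24 h over 3 h with a standard error (SE). A gene was called when the adjusted p of edgeR's quasi-likelihood test was below 0.05. In the first principal component of the 20 libraries of 50 µM and vehicle, with 29% of the variance, the 24 h libraries stood apart from the 3 h libraries in both treatments. The 50 µM libraries of 3 h lay at −32.46 to −40.14 on that axis and the vehicle libraries of 3 h at −27.27 to −40.10, so the 50 µM libraries whose label field gives 24 hours stood with the 3 h group. Prrx1, a transcription factor of limb mesenchyme, averaged 466.9 ± 39.7 CPM at 24 h and 513.7 ± 68.9 CPM at 3 h in 50 µM (SD, n = 5 each). Markers of the epidermis varied from library to library. Summed from scaled CPM, here and below, their share of reads was 0.0397% to 0.123% in 50 µM at 24 h. At 3 h in 50 µM it was 0.0773% to 0.112%. In vehicle it was 0.0136% to 0.216% at 24 h and 0.0576% to 0.11% at 3 h.

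Over the hours in 50 µM, genes of cartilage, bone and muscle rose and genes of cell division and of early limb patterning fell. Of the 16859 genes tested, 5244 were called (31.1%), 2623 higher at 24 h (15.6%) and 2621 lower (15.5%). At least 2-fold differences were found among called genes for 495 that rose (2.94%) and 526 that fell (3.12%). The 5 libraries of one time lay wholly above or below those of the other for 3629 genes (21.5%). These shares over all genes are the background for the list counts below. In vehicle over the same hours 2781 of 17081 genes were called higher (16.3%) and 2350 lower (13.8%). Among the 16570 genes tested in both treatments, 1787 were called higher in both and 1643 lower in both. Calls in opposite directions were rare, with 14 genes lower in 50 µM but higher in vehicle and 2 genes higher in 50 µM but lower in vehicle. The median change over all genes tested was 0.00 on the log2 scale in each treatment. The scaling between libraries sets this median near 0, so it cannot show whether all genes shifted together.

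The difference between the time change in 50 µM and that in vehicle was itself tested in a fit of the 20 libraries. It was called for 107 of 18139 genes (0.590%), 14 with a higher change in 50 µM (0.0772%) and 93 with a lower one (0.513%). That number depended on single libraries. It was 63 without replicate 2 and 71 without replicate 5 of 50 µM at 24 h, 65 without replicate 5 of 50 µM at 3 h, 69 without replicate 3 and 64 without replicate 4 of vehicle at 24 h, and 71 without replicate 4 of vehicle at 3 h. DESeq2 called 266.

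**Figure D1:**
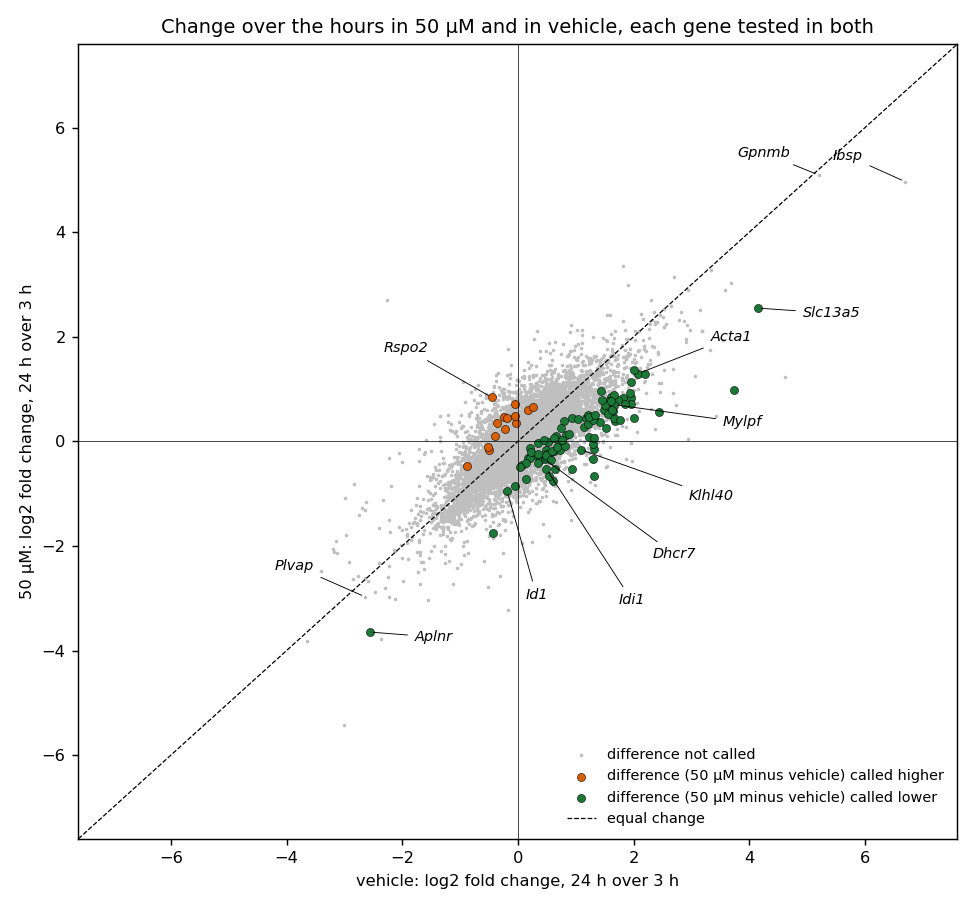
Each point is 1 of the 16570 genes tested in both treatments, with the log2 fold change of 24 h over 3 h in vehicle on the x axis and in 50 µM on the y axis, and the dashed line marks an equal change. Points called in the test of the difference are coloured, and most of them lie below the line, where the change in 50 µM is lower than in vehicle (93 genes called lower, 14 called higher).

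Cartilage matrix genes rose. All 25 tested members of the chondrocyte matrix list rose in 50 µM, with a median log2 change of 1.40, and 24 of them had groups that did not overlap. Col2a1, at chr15:97975602-98004695 of mm10 on the minus strand, encodes the main collagen of cartilage. Its level in 50 µM was 6874, 7247, 6114, 6968 and 6667 CPM in the 5 libraries of 24 h, against 2520, 2643, 2670, 2235 and 2680 CPM in those of 3 h. Every 24 h library lay far above every 3 h library. The change was 1.41 ± 0.07 (SE, adjusted p = 6.52e-10), and in vehicle it was 1.36 ± 0.08. Acan, the large proteoglycan that holds water in cartilage, averaged 474.3 ± 35.5 CPM at 24 h and 161.1 ± 25.5 CPM at 3 h in 50 µM (SD, n = 5). The adaptor proteins of the matrix, matrilin 1 (Matn1, 2.29 ± 0.12 SE) and Comp (2.25 ± 0.12 SE), rose more than collagen IX (Col9a1, 1.27 ± 0.08 SE) on the log2 scale. In vehicle all 26 tested members rose, with a median of 1.44. The difference between the treatments was called by edgeR for none of 26, beside 107 of all 18139 genes (0.590%). Of the 26, 5 had an unadjusted p under 0.05 in edgeR, beside 1725 of the 18139, and DESeq2 called 2.

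Among transcription factors of the chondrocyte list, 11 of 17 rose, 1 fell and the median change was 0.40. Sox9, which starts the cartilage program, was at 481, 483, 438, 514 and 511 CPM in 50 µM at 24 h and at 446, 390, 402, 447 and 404 CPM at 3 h. The groups overlapped in replicate 3 of 24 h, and the rise was small at 0.22 ± 0.06 (SE, adjusted p = 0.0165). Its partners Sox5 and Sox6 rose by 0.66 ± 0.09 and 1.04 ± 0.09 (SE). In vehicle the change of Sox9 was −0.14 ± 0.08, and the difference of 0.37 ± 0.10 was not called (adjusted p = 0.125). Runx2, needed for hypertrophy and for bone cells, rose by 0.85 ± 0.10 (SE) in 50 µM and by 0.64 ± 0.12 in vehicle.

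Genes of maturing cartilage rose as well. In the prehypertrophic and hypertrophic list 15 of 20 tested members rose and 1 fell, with a median of 1.13, against 14 risen and 1 fallen of 19 in vehicle. Ihh, the hedgehog ligand made by prehypertrophic cells, averaged 60.2 ± 10.6 CPM at 24 h and 27.3 ± 2.64 CPM at 3 h in 50 µM (SD, n = 5 each). Pth1r, the receptor that holds cells back from hypertrophy, did not pass the test (0.19 ± 0.08 SE, adjusted p = 0.0853). Col10a1, the collagen of hypertrophic cells, was at 13.1, 22.6, 17.6, 12.6 and 11.3 CPM in 50 µM at 24 h and at 4.38, 5.71, 5.79, 3.50 and 3.69 CPM at 3 h. In vehicle it was at 56.1, 98.2, 45.9, 32.4 and 30.1 CPM at 24 h and at 2.73, 6.10, 6.67, 5.35 and 5.42 CPM at 3 h. All 5 vehicle libraries of 24 h lay above all 5 of 50 µM at 24 h, while the 3 h groups overlapped. The change was 1.75 ± 0.20 (SE, adjusted p = 6.05e-06) in 50 µM and 3.32 ± 0.31 in vehicle, and the difference of −1.56 ± 0.40 missed the threshold (adjusted p = 0.0769). The Runx motif TGTGGT, searched on both strands, stood in 1 of the 11 windows found for the list's called members, against 16.9% of all 27025 windows. Here and below a window runs from 250 bases before to 50 bases after a gene's start in RefSeq's annotation of GRCm38.p6 (mm10).

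Most osteoblast genes rose, some from a level near 0. The osteoblast and hypertrophic lists share members, Ibsp among them, so their counts are not separate. Ibsp, bone sialoprotein, at chr5:104299171-104311469 on the plus strand of mm10, was at 55.0, 59.2, 81.3, 48.0 and 36.4 CPM in 50 µM at 24 h and at 0.535, 1.61, 4.36, 1.55 and 0.944 CPM at 3 h. It was near 0 in all 3 h libraries and at 36.4 CPM or above in all 24 h libraries, a rise of 4.97 ± 0.34 (SE, adjusted p = 1.83e-08). In vehicle at 24 h it was at 221, 252, 199, 138 and 121 CPM, above every 50 µM library, but the difference in the time change, −1.72 ± 0.64 (SE), was not called (adjusted p = 0.309). Of 21 tested osteoblast genes 15 rose and 1 fell in 50 µM, median 0.84, and 16 rose and 1 fell in vehicle, median 0.93. Alpl, the phosphatase that frees phosphate for mineral, rose by 1.32 ± 0.12, the osteoblast transcription factor Sp7 by 0.84 ± 0.10, and Smpd3, a sphingomyelinase of mineralising cells, by 2.29 ± 0.17 (SE). Col1a1, collagen I, averaged 2593 ± 221 CPM at 24 h and 1722 ± 138 CPM at 3 h in 50 µM, against 3039 ± 126 and 1607 ± 236 CPM in vehicle (SD, n = 5). Of the 6 osteoclast genes tested, 3 rose and 1 fell. One of those that rose was Mmp9, a matrix protease shared with the hypertrophic list, which averaged 34.2 ± 4.79 CPM at 24 h and 9.53 ± 1.21 CPM at 3 h.

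**Figure D2:**
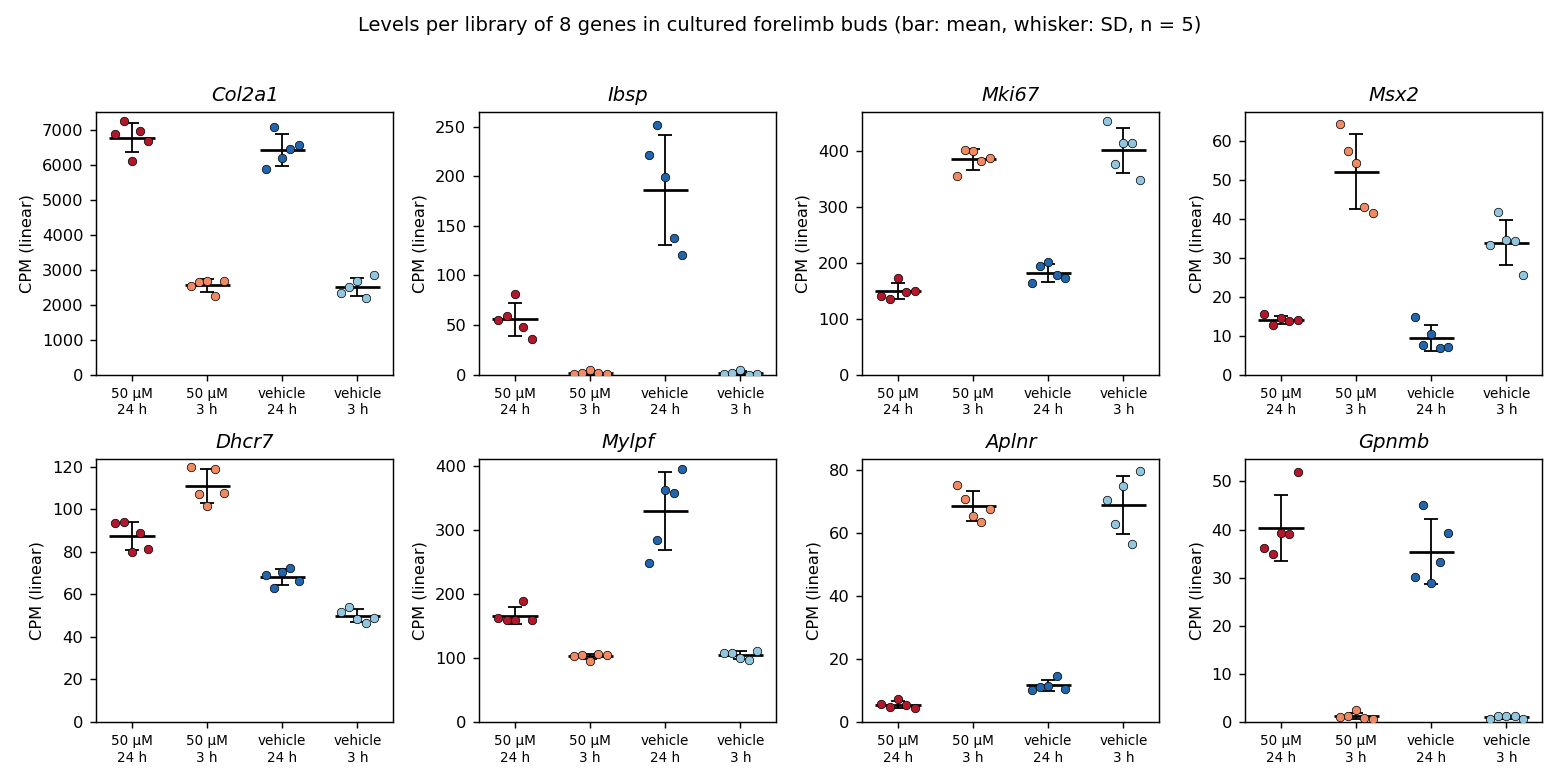
Each point is the CPM of 1 library on a linear axis that starts at 0, for 8 genes in 50 µM at 24 h and 3 h and in vehicle at 24 h and 3 h, with the mean and SD of 5 libraries. The 24 h and 3 h groups of 50 µM are separate for all 8 genes, and at 24 h all 50 µM libraries lie below all vehicle libraries for Ibsp, Mylpf and Aplnr and above them for Dhcr7.

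Tendon and connective tissue genes rose in 17 of 25 cases and fell in 1, with a median of 0.55 in 50 µM, against 19 risen, 2 fallen and a median of 0.81 in vehicle. Scx, the transcription factor of tendon precursors, rose by 0.91 ± 0.15 (SE, adjusted p = 0.000194). The small leucine-rich proteoglycans of the collagen fibre rose with it, Aspn by 1.76 ± 0.15, Ogn by 1.49 ± 0.15 and Bgn by 1.03 ± 0.09 (SE). Tnmd, a marker of mature tendon cells, averaged 19.0 ± 4.36 CPM at 24 h and 13.4 ± 4.41 CPM at 3 h in 50 µM (adjusted p = 0.0617), against 39.2 ± 4.00 and 13.9 ± 6.43 CPM in vehicle (SD, n = 5 each). In 7 of 18 alternatives, DESeq2 among them, the rise of Tnmd in 50 µM was called. The difference in its change, −0.98 ± 0.33 (SE), was not called (adjusted p = 0.248). In the joint list 8 of 18 genes rose and 3 fell. Gdf5, the growth factor that marks the future joint, fell by 0.28 ± 0.09 (SE, adjusted p = 0.031) with overlapping groups. Its call was lost in 7 of 18 alternatives. Prg4, the lubricant of joint surfaces, averaged 6.48 ± 0.577 CPM at 24 h and 3.70 ± 1.23 CPM at 3 h, and Trpv4, a calcium channel of chondrocytes, rose by 1.64 ± 0.08 (SE).

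Genes of cell division fell. All 31 tested genes of the G2/M and mitosis list fell in 50 µM, with a median of −1.39. The groups did not overlap for any of the 31, where 11.1% of all genes had such groups in that direction. In vehicle all 31 fell too, with a median of −1.22. Mki67, the nuclear antigen of cycling cells, was at 141, 135, 173, 148 and 150 CPM in 50 µM at 24 h and at 355, 402, 399, 381 and 387 CPM at 3 h. Each 24 h library held less than the lowest 3 h library, a change of −1.36 ± 0.07 (SE, adjusted p = 1.67e-09). Top2a, which untangles chromosomes, changed by −1.46 ± 0.07, the kinetochore motor Cenpe by −1.62 ± 0.08, and the spindle proteins Tpx2 and Nusap1 by −1.43 ± 0.06 and −1.46 ± 0.07 (SE). The change in 50 µM minus that in vehicle had a median of −0.22 on the log2 scale. Neither edgeR nor DESeq2 called the difference for any of the 31 genes, and 11 had an unadjusted p under 0.05 in edgeR. Over all 18139 genes edgeR called 107 (0.590%), and 1725 had an unadjusted p under 0.05. Of 38 genes of DNA replication 37 fell, with a median of −0.72, against 36 and −0.60 in vehicle. The replicative helicase subunit Mcm3 changed by −0.71 ± 0.07, the ribonucleotide reductase subunit Rrm2 by −0.91 ± 0.07 and Uhrf1, which keeps methylation through replication, by −1.04 ± 0.08 (SE). Cdkn1a, an inhibitor of cell cycle kinases, averaged 90.9 ± 4.72 CPM at 24 h and 54.2 ± 5.09 CPM at 3 h, a rise of 0.75 ± 0.07 (SE). In bulk tissue, fewer cells of a kind and less RNA per cell cannot be told apart.

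Many genes of mitosis carry a pair of promoter elements, the CHR element and the CCAAT box, which are bound by the repressor complex of resting cells and by NF-Y. Windows were found for 26 of the 31 genes. The CHR letters TTTGAA, searched on both strands, stood in 19 of the 26, 73.1%, against 18.1% of all 27025 windows, and CCAAT stood in 20, 76.9%, against 37.9%. The windows of Ccnb2, the B-type cyclin, and Cdk1, its kinase, hold both motifs more than once and are shown to let their spacing be read, 5′ to 3′ on the minus strand of mm10 at chr9:70421505-70421804 and chr10:69352863-69353162, from RefSeq. Capitals mark TTTGAA and CCAAT or its reverse complement ATTGG, and base 251 is the start.
Ccnb2: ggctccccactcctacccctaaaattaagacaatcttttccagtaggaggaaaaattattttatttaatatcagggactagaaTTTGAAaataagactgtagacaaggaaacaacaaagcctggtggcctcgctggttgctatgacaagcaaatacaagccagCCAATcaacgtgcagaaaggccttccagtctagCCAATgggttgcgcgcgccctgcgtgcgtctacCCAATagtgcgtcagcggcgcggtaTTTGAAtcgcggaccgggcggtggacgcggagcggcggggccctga
Cdk1: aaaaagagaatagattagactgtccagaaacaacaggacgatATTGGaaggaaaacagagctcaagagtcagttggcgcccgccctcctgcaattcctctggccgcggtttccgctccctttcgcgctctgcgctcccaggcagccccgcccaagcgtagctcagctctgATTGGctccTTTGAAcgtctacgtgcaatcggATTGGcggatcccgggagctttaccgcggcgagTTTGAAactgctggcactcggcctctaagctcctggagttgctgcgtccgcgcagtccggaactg
Of the 2 CHR matches in the Ccnb2 window the second begins at base 255, and of the 2 in the Cdk1 window the second begins at base 236. In both genes the last CCAAT match lies upstream of that second CHR match, at base 230 in Ccnb2 and at base 203 in Cdk1. The expression of Ccnb2 averaged 23.2 ± 2.53 CPM at 24 h and 67.1 ± 6.90 CPM at 3 h in 50 µM, and that of Cdk1 averaged 50.7 ± 3.74 CPM at 24 h and 93.4 ± 4.62 CPM at 3 h (SD, n = 5 each). A match is a run of letters and not a measured binding site.

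Genes of cholesterol synthesis moved in opposite directions in the 2 treatments. Of 26 genes of synthesis and uptake, 14 fell and 1 rose over the hours in 50 µM, with a median of −0.29, whereas in vehicle 17 rose and none fell, with a median of 0.36. The difference was called lower in 50 µM for 15 of the 26, with a median difference of −0.65, where 0.513% of all genes were called in that direction. Cells switch these genes on together through the transcription factor SREBP2 when sterol in the endoplasmic reticulum is low, and INSIG proteins hold that switch back. The levels at 3 h were where the treatments stood furthest apart. At 3 h the mean level in 50 µM was above that in vehicle for 26 of 26 genes, with a median ratio of 1.68, and at 24 h for 22 of 26, with a median ratio of 1.09. These ratios are a description and were not tested here.

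Dhcr7, the last enzyme of the pathway, at chr7:143823145-143848410 on the plus strand, was at 93.4, 94.0, 80.0, 88.8 and 81.6 CPM in 50 µM at 24 h and at 120, 107, 102, 119 and 108 CPM at 3 h. The vehicle libraries were at 69.0, 62.8, 70.4, 72.2 and 66.4 CPM at 24 h and at 51.8, 54.2, 48.4, 46.3 and 49.0 CPM at 3 h. The groups did not overlap in either treatment, with 24 h the lower time in 50 µM and the higher time in vehicle. The change was −0.34 ± 0.07 (SE, adjusted p = 0.00157) in 50 µM and 0.46 ± 0.07 (adjusted p = 0.00012) in vehicle, and the difference was −0.79 ± 0.09 (adjusted p = 0.000234). Idi1, the isomerase that makes the second isoprene unit, was at 24.6, 30.2, 32.1, 30.3 and 35.8 CPM in 50 µM at 24 h and at 46.4, 38.9, 47.4, 44.9 and 43.5 CPM at 3 h. In vehicle it was at 30.2, 34, 29.6, 33.4 and 25.8 CPM at 24 h and at 21.7, 23.6, 22.9, 22 and 19.6 CPM at 3 h. The 24 h levels of the 2 treatments overlapped and the 3 h levels lay apart, with a difference of −1.01 ± 0.13 (SE, adjusted p = 0.000249). Insig1, the feedback protein, changed by −0.36 ± 0.08 in 50 µM and by 0.56 ± 0.08 in vehicle (SE).

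The same held along the pathway. Hmgcs1, which acts early in it, changed by −0.31 ± 0.07 in 50 µM and 0.21 ± 0.07 in vehicle (SE). Squalene synthase Fdft1 changed by −0.30 ± 0.07 and 0.48 ± 0.06, squalene epoxidase Sqle by −0.42 ± 0.06 and 0.14 ± 0.08, and the demethylase Cyp51 by −0.35 ± 0.07 and 0.37 ± 0.07, in 50 µM and in vehicle in turn (SE). The rise of Sqle in vehicle did not pass the test (adjusted p = 0.21), though its difference did (−0.55 ± 0.10 SE, adjusted p = 0.00756). Nsdhl and Lss did not pass the test in 50 µM, with changes of −0.10 ± 0.10 and −0.18 ± 0.08 (SE), but rose in vehicle by 0.81 ± 0.08 and 0.59 ± 0.08, and their differences of −0.89 ± 0.13 and −0.76 ± 0.11 were called. In 10 µM over the same hours the changes were 0.10 for Dhcr7, 0.04 for Insig1 and 0.49 for Idi1, of which that of Idi1 passed the test (adjusted p = 0.039). The number of sterol genes with a called difference was 14 to 18 over all alternatives tried.

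**Figure D3:**
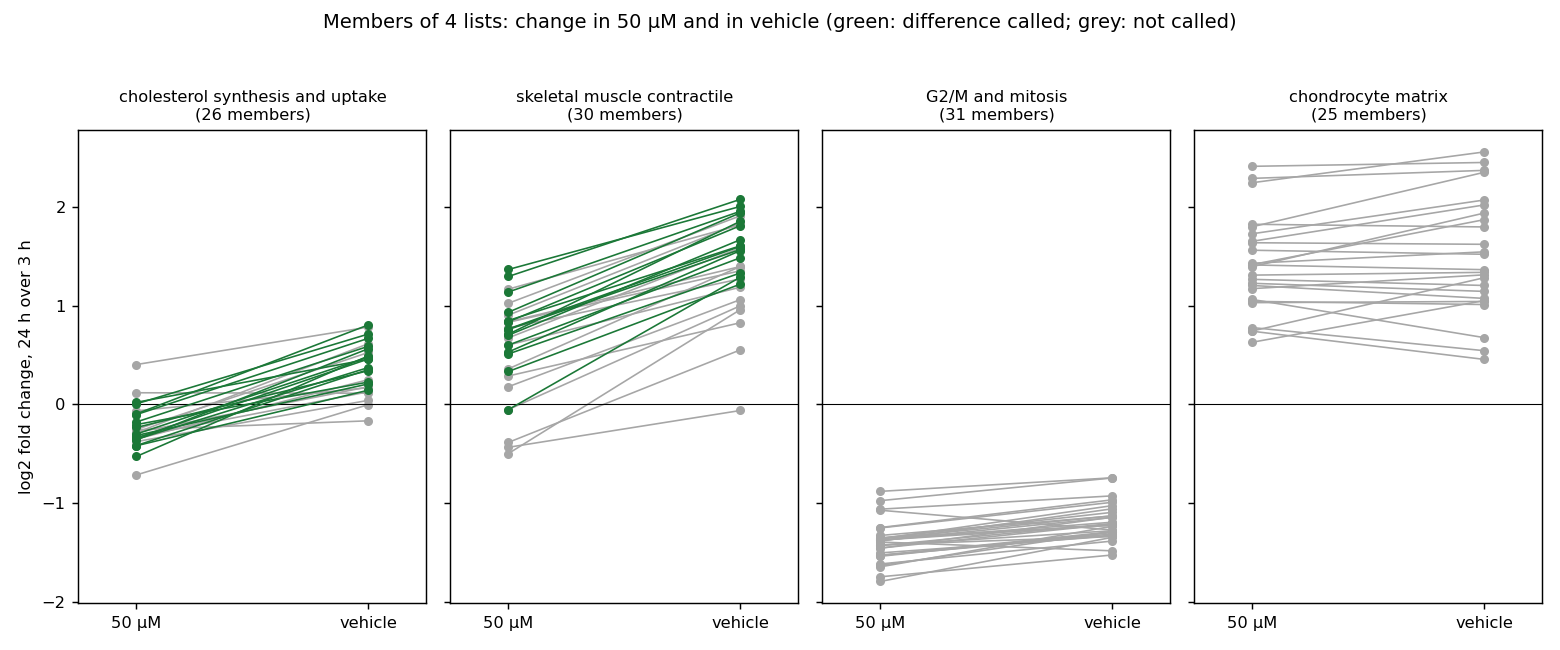
Each line is 1 gene tested in both treatments, and joins its log2 fold change of 24 h over 3 h in 50 µM (left) to that in vehicle (right), with green lines for genes whose difference was called. Cholesterol genes lie mostly below 0 in 50 µM and above 0 in vehicle, muscle genes rise less in 50 µM (median 0.71) than in vehicle (median 1.49), and no line of the mitosis or cartilage matrix lists is green.

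The windows of Hmgcs1 and Idi1 are printed because both genes take part in the opposite time changes and differ in their motifs. They read 5′ to 3′ on the plus strand of mm10 at chr13:119690101-119690400 for Hmgcs1 and chr13:8885356-8885655 for Idi1, from RefSeq. Capitals mark the sterol element TCACNCCAC and CCAAT or ATTGG.
Hmgcs1: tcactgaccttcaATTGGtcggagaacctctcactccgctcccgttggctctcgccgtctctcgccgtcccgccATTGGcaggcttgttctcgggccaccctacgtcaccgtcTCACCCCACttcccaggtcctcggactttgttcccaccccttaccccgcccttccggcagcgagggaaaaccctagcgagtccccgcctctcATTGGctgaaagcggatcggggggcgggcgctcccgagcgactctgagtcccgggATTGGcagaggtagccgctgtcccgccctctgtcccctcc
Idi1: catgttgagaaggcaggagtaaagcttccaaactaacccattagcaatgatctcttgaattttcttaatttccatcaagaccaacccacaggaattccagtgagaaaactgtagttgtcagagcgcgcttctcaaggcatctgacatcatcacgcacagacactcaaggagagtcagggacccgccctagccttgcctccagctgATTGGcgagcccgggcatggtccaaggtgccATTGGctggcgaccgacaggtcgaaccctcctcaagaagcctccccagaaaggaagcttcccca
The Hmgcs1 window holds 1 sterol element, at base 114, and 4 CCAAT matches. The Idi1 window holds 2 CCAAT matches and no letters of the sterol element as spelled here. Windows were found for 10 of the 15 genes of the list called in 50 µM. CCAAT stood in 8 of the 10, against 37.9% of all windows, and the sterol element in 1, against 1.22%.

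Lipid genes outside the sterol pathway had no common direction in 50 µM. In fatty acid synthesis 4 of 16 genes rose and 3 fell, a called share of 43.8% beside 31.1% of all genes, with a median of 0.01. In vehicle 10 rose and 1 fell, with a median of 0.23. The difference was called for 2 of 17, beside 0.590% of all genes. Without replicate 2 of 24 h or replicate 5 of 3 h 2 genes rose in 50 µM, and without replicate 5 of 24 h or replicate 1 of 3 h 1 fell. Scd1, the desaturase of long fatty acids, averaged 134.8 ± 10.3 CPM at 24 h and 132.2 ± 13.3 CPM at 3 h in 50 µM, against 95.9 ± 15 and 57.1 ± 2.48 CPM in vehicle (SD, n = 5). Its difference was −0.72 ± 0.12 (SE, adjusted p = 0.003). Me1, malic enzyme, rose in both, by 0.94 ± 0.10 in 50 µM and 0.62 ± 0.10 in vehicle (SE). Of 14 genes of sterol efflux and LXR targets, 3 rose in 50 µM and 8 in vehicle. The exporter Abca1 rose by 0.58 ± 0.11 (SE) with overlapping groups, Abcg1 did not pass the test (−0.13 ± 0.15 SE, adjusted p = 0.554), and Srebf1 rose by 0.20 ± 0.06 (SE). Among PPAR targets of lipid uptake and oxidation 2 of 19 rose and 4 fell in 50 µM, and 8 of 20 rose and 1 fell in vehicle. The number that fell in 50 µM was 2 without replicate 2 of 24 h or without replicate 1 or 4 of 3 h. Of the PPAR list 31.6% were called in 50 µM, near the 31.1% of all genes. The efflux and LXR list, at 21.4%, was below that share.

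Muscle genes rose in 50 µM, but less than in vehicle. Of 30 tested genes of the contractile apparatus 23 rose and 1 fell in 50 µM, with a median of 0.71, against 28 risen of 31 and a median of 1.49 in vehicle. The difference was called lower for 15 of 31, with a median of −0.88, where 0.513% of all genes were called in that direction. Mylpf, the light chain of fast myosin, at chr7:127208890-127214298 on the plus strand, was at 162, 159, 159, 189 and 158 CPM in 50 µM at 24 h and at 103, 104, 94.1, 106 and 104 CPM at 3 h. The vehicle libraries were at 248, 284, 362, 357 and 395 CPM at 24 h and at 107, 108, 100, 96.5 and 110 CPM at 3 h. The 3 h groups of the treatments overlapped, and at 24 h every vehicle library lay above every 50 µM library. The change was 0.70 ± 0.07 (SE) in 50 µM and 1.67 ± 0.11 in vehicle, and the difference was −0.96 ± 0.13 (adjusted p = 0.000335). Acta1, skeletal actin, averaged 401.1 ± 41.6 CPM at 24 h and 163.8 ± 8.72 CPM at 3 h in 50 µM, against 609.3 ± 130 and 145.4 ± 5.23 CPM in vehicle (SD, n = 5). Cardiac troponin T (Tnnt2), which embryonic skeletal muscle also makes, and the thick filament protein Mybph had differences of −0.63 ± 0.14 and −0.81 ± 0.18 (SE).

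Klhl40, a stabiliser of thin filament proteins, was at 10.2, 8.93, 10.4, 11.9 and 10.7 CPM in 50 µM at 24 h and at 11.4, 11.1, 12.9, 11.4 and 11.7 CPM at 3 h. In vehicle it was at 17, 17.6, 22, 23 and 22.9 CPM at 24 h and at 11.7, 9.44, 9.72, 9.53 and 8.45 CPM at 3 h. The groups overlapped in 50 µM and lay apart in vehicle, with a difference of −1.23 ± 0.16 (SE, adjusted p = 0.000249). Itgb1bp2, a muscle partner of integrin, behaved alike, with a change of 0.26 ± 0.12 in 50 µM (adjusted p = 0.115), 1.52 ± 0.12 in vehicle and a difference of −1.25 ± 0.17 (SE). Among regulators of myogenesis and progenitor genes 14 of 21 rose in 50 µM, median 0.46, and 18 of 22 rose and 1 fell in vehicle, median 0.96. Myog, which commits myoblasts to differentiate, rose by 0.70 ± 0.08 in 50 µM and by 0.91 ± 0.09 in vehicle (SE), a difference that was not called (adjusted p = 0.632). The receptor subunit Chrna1 of the nerve-muscle junction rose by 1.28 ± 0.12 and 1.46 ± 0.14, and the fusion protein Mymk had a called difference of −0.76 ± 0.18 (SE). The contractile genes summed to 0.347% to 0.454% of reads in 50 µM at 24 h and 0.231% to 0.253% at 3 h, against 0.452% to 0.837% in vehicle at 24 h and 0.225% to 0.247% at 3 h. The lowest vehicle library of 24 h, replicate 1, also had the highest epidermal level, a mean of 5.212 log2 CPM over the epidermal list, where the other vehicle libraries of 24 h had 1.636 to 4.596. Without it 23 contractile genes had a called difference, and with the epidermal level as a covariate 17 did. Over all alternatives the number was 10 to 23, lowest without replicate 2 of 50 µM at 24 h, and DESeq2 called 22. The differences of Tnnt2, Mymk and Mybph lost their call in 17, 16 and 14 of 28 alternatives.

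Most genes of the macrophage list rose in both treatments, but not all. Of 22 tested genes 14 rose and 2 fell in 50 µM, median 0.95, against 18 risen and 1 fallen in vehicle, median 1.33. Gpnmb, a glycoprotein of phagocytes and of bone cells, at chr6:49036546-49070929 on the plus strand, was at 36.2, 34.8, 39.3, 39.0 and 52.0 CPM in 50 µM at 24 h and at 0.973, 1.19, 2.37, 0.854 and 0.558 CPM at 3 h. All 24 h libraries stood far above all 3 h libraries, a change of 5.10 ± 0.24 (SE, adjusted p = 6.39e-10), beside 5.20 ± 0.20 in vehicle. Lysozyme (Lyz2) rose by 2.90 ± 0.16 and the lectin Lgals3 by 2.34 ± 0.15 (SE) in 50 µM. Csf1r, the receptor of the macrophage growth factor, was not called in 50 µM (−0.24 ± 0.12 SE, adjusted p = 0.140 by edgeR). It averaged 13.4 ± 2.09 CPM at 24 h and 15.9 ± 1.31 CPM at 3 h in 50 µM, against 22.6 ± 2.91 and 16.1 ± 1.48 CPM in vehicle (SD, n = 5), and its difference of −0.73 ± 0.16 (SE) was called (adjusted p = 0.031). Summed, the macrophage genes took 0.0314% to 0.0332% of reads at 24 h and 0.0135% to 0.015% at 3 h in 50 µM, against 0.0361% to 0.0418% and 0.0134% to 0.0161% in vehicle.

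Endothelial and red cell genes fell. In 50 µM 16 of 22 endothelial genes fell and 1 rose, median −0.54, and in vehicle 14 fell and 1 rose, median −0.44. Aplnr, the apelin receptor of veins and of growing capillaries, at chr2:85136225-85139923 on the plus strand, was at 5.67, 4.71, 7.37, 5.20 and 4.29 CPM in 50 µM at 24 h and at 75.4, 70.8, 65.5, 63.5 and 67.8 CPM at 3 h. The vehicle libraries were at 10.2, 11.1, 11.5, 14.6 and 10.3 CPM at 24 h and at 70.7, 62.8, 75.0, 56.5 and 79.7 CPM at 3 h. The fall was larger in 50 µM, at −3.65 ± 0.12 (SE, adjusted p = 1.96e-11), than in vehicle, at −2.57 ± 0.12, and the difference of −1.07 ± 0.17 was called (adjusted p = 0.00183). Plvap, a protein of capillary pores, changed by −2.97 ± 0.17, while the general endothelial marker Pecam1 changed by −0.71 ± 0.09 and Emcn by −0.86 ± 0.10 (SE). Endothelial genes summed to 0.052% to 0.0578% of reads at 24 h and 0.0789% to 0.083% at 3 h. Of 16 erythroid genes 9 fell in 50 µM, and of 17 in vehicle 9 fell and 1 rose. The anion exchanger of red cells, Slc4a1, averaged 6.30 ± 0.943 CPM at 24 h and 18.6 ± 4.25 CPM at 3 h, and Hbb-bt, a beta globin whose reads may be shared with its near-identical neighbour, averaged 43.7 ± 11.4 and 90.0 ± 12.3 CPM (SD, n = 5 each).

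Of the pericyte and smooth muscle list 8 of 15 genes rose and 1 fell, against 10 risen in vehicle, and of the Schwann and neural list 5 of 15 fell in each treatment, or 3 in 50 µM without replicate 2 of 24 h. The called share of the Schwann and neural list in 50 µM, 33.3%, is near the 31.1% of all genes. Sox10, the transcription factor of Schwann cell precursors, changed by −1.36 ± 0.14 (SE) in 50 µM. Of the adipocyte list 2 of 9 genes could be tested and 1 rose. Adiponectin (Adipoq) was near 0, at 0.0519 CPM at 24 h and 0.0163 CPM at 3 h. In the epidermis list 5 of 27 genes rose and 9 fell in 50 µM, and in a fit of all 20 libraries these counts were 3 and 4. Krt10, a keratin of the layers above the basal one, was at 24.7, 20, 93, 23.9 and 13.4 CPM at 24 h and 4.38, 7.48, 9.68, 3.13 and 5.79 CPM at 3 h. The groups did not overlap, but replicate 3 of 24 h lay far above the rest. Krt15 of the basal layer changed by −1.93 ± 0.31 (SE), and the basal keratin Krt14 was not called (−0.24 ± 0.17 SE, adjusted p = 0.312). Krt6a and Krt16, keratins of stressed epidermis whose reads may be shared with related keratins, averaged 21.7 ± 11.6 and 15.6 ± 9.83 CPM at 24 h, against 2.69 ± 1.54 and 1.61 ± 0.783 CPM at 3 h (SD, n = 5 each). In vehicle at 24 h single libraries ran from 1.41 to 108.5 CPM for Krt6a and from 0.818 to 64.2 CPM for Krt16.

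**Figure D4:**
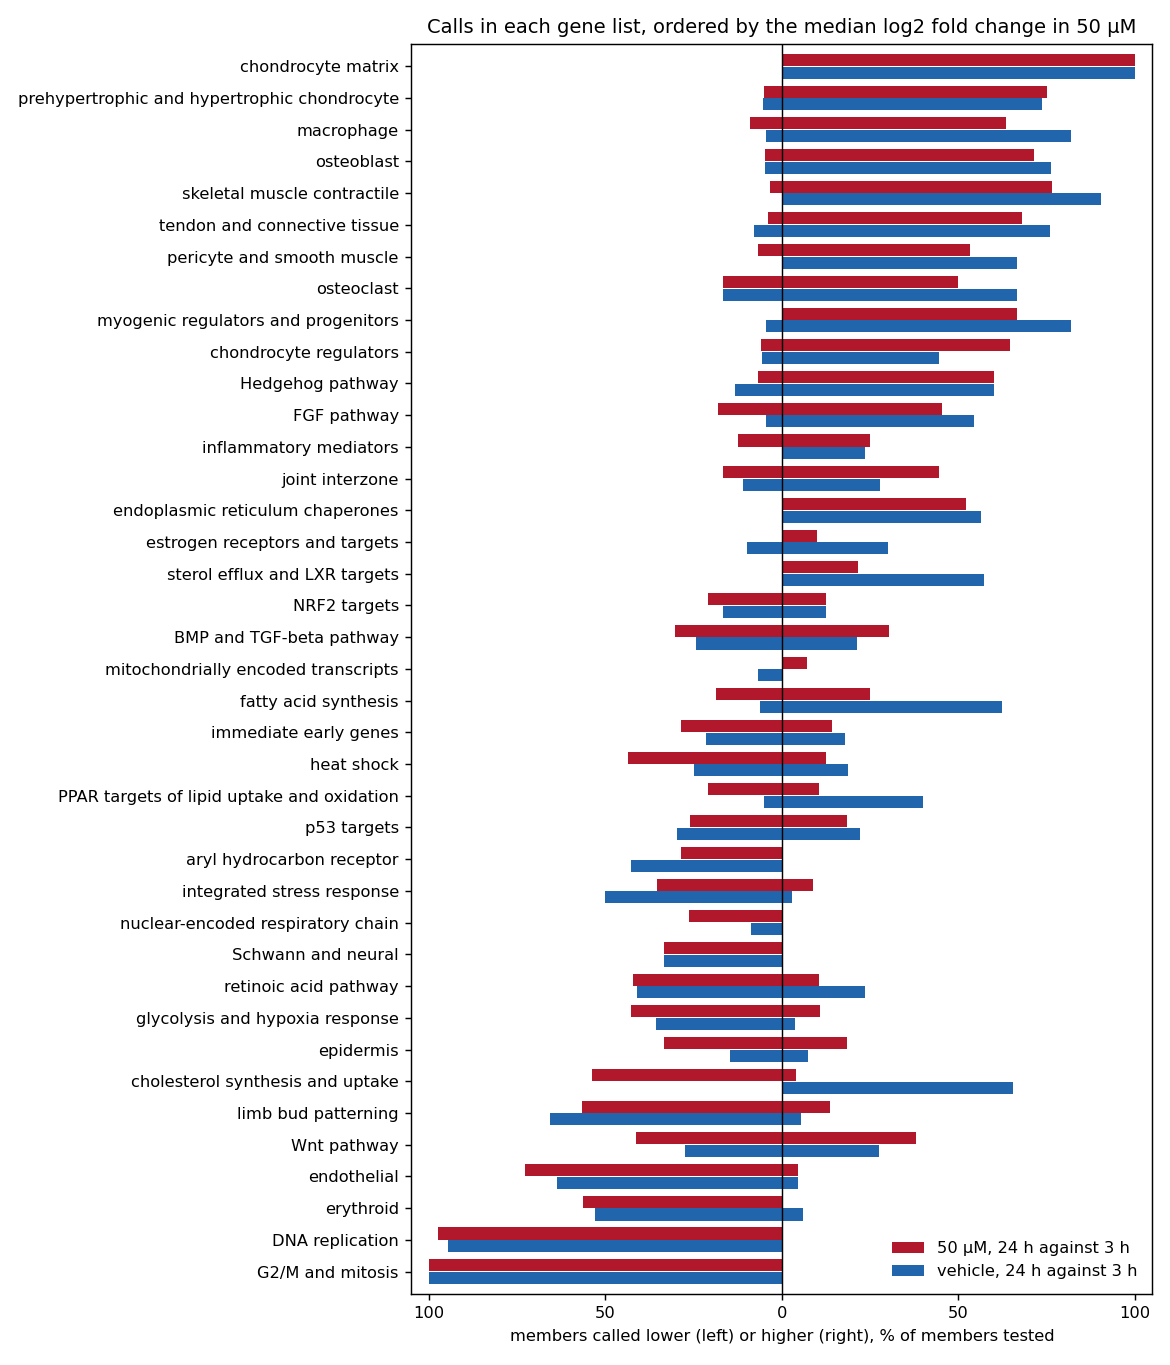
Bars give the percent of tested members called lower (to the left) or higher (to the right) at 24 h than at 3 h in 50 µM (upper, red) and in vehicle (lower, blue), for gene lists with at least 6 tested members, ordered by median change in 50 µM. Most pairs of bars point the same way, and the cholesterol list points left in 50 µM (14 of 26 lower) and right in vehicle (17 of 26 higher).

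Transcription factors that pattern the early bud fell. Of 37 tested genes 21 fell and 5 rose in 50 µM, with a median of −0.33, against 25 fallen and 2 risen of 38 in vehicle, with a median of −0.46. Msx2, a homeobox gene of the undifferentiated distal mesenchyme, was at 15.5, 12.6, 14.6, 13.8 and 13.9 CPM in 50 µM at 24 h and at 64.5, 57.4, 54.5, 43.0 and 41.6 CPM at 3 h. The groups lay well apart, a change of −1.88 ± 0.12 (SE, adjusted p = 6.34e-09). Its relative Msx1 changed by −1.35 ± 0.08, Lhx9 of the distal bud by −1.22 ± 0.09 and Tbx3 of the anterior and posterior margins by −1.02 ± 0.09 (SE). Genes of the digits changed less, Hoxd13 by −0.36 ± 0.07 and Hoxa13 by −0.33 ± 0.08 (SE).

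Signalling genes moved in both directions. In the BMP and TGF-beta list 10 of 33 genes rose and 10 fell. Id1, a direct BMP target, was at 117, 87.0, 85.3, 88.1 and 103 CPM in 50 µM at 24 h and at 207, 196, 164, 174 and 186 CPM at 3 h. In vehicle it was at 113, 80.7, 87.3, 83.3 and 80.7 CPM at 24 h and at 101, 104, 100, 89.5 and 114 CPM at 3 h. The treatments overlapped at 24 h and lay apart at 3 h, and the difference was −0.75 ± 0.14 (SE, adjusted p = 0.00698). Id2, its relative, changed by −0.87 ± 0.07 in 50 µM and −0.70 ± 0.07 in vehicle (SE). Nog, the secreted BMP antagonist, rose by 0.71 ± 0.11 in 50 µM, was not called in vehicle (−0.05 ± 0.11) and had a called difference of 0.77 ± 0.17 (SE, adjusted p = 0.0322). Tgfb2 was not called in 50 µM (−0.10 ± 0.06) and fell by 0.52 in vehicle, with a called difference of 0.43 ± 0.08 (SE). Ctgf, a matrix protein induced by TGF-beta, rose by 1.52 ± 0.12 (SE) in 50 µM.

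In the Hedgehog list 9 of 15 genes rose and 1 fell. The pathway's own readouts Gli1 and Ptch1 averaged 139.2 ± 12.8 and 230.3 ± 22.9 CPM at 24 h, against 50.9 ± 7.65 and 112.1 ± 16.4 CPM at 3 h, in 50 µM (SD, n = 5). The change of Gli1 was 1.46 ± 0.10 in 50 µM and 0.89 ± 0.09 in vehicle, and the difference of 0.57 ± 0.14 (SE) missed the threshold (adjusted p = 0.0531). Of 29 Wnt genes 11 rose and 12 fell, among them the nuclear partner of beta-catenin Lef1, at −1.44 ± 0.16, and the secreted modulator Dkk3, at 1.11 ± 0.08 (SE). Rspo2, which amplifies Wnt signals in the limb, was at 5.90, 6.10, 8.21, 5.48 and 5.22 CPM in 50 µM at 24 h and at 3.50, 2.91, 4.46, 3.25 and 3.17 CPM at 3 h. The vehicle libraries were at 3.16, 4.01, 5.25, 3.52 and 3.60 CPM at 24 h and at 6.47, 3.84, 5.41, 4.91 and 6.34 CPM at 3 h. All 24 h libraries of 50 µM lay above its 3 h libraries, the vehicle groups overlapped, and the difference of 1.30 ± 0.26 (SE) was called (adjusted p = 0.0141). In the FGF list 10 of 22 genes rose and 4 fell, and 2 fell when replicate 2, 3 or 4 of 24 h or replicate 2 of 3 h was left out. Fgf10, the mesenchymal ligand that keeps the bud growing, rose in 50 µM (0.47 ± 0.09), was not called in vehicle (−0.25 ± 0.09) and had a called difference of 0.72 ± 0.12 (SE, adjusted p = 0.00306).

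Of 19 genes of retinoic acid handling 8 fell and 2 rose. Those that fell included the degrading enzymes Cyp26b1 (−0.84 ± 0.09) and Cyp26a1 (−1.32 ± 0.17) and the retinol receptor Stra6 (−1.67 ± 0.12), and the retinol carrier Rbp4 rose by 1.63 ± 0.17 (SE). Of 10 genes of estrogen receptors and their targets 1 rose and none fell, where 31.1% of all genes were called. Esr1 and Esr2, the estrogen receptors, were low, at 1.06 ± 0.214 and 0.759 ± 0.61 CPM at 24 h and 1.53 ± 0.787 and 0.454 ± 0.324 CPM at 3 h (SD, n = 5). Neither was called in 50 µM (adjusted p = 0.271 and 0.402 by edgeR), and replicate 4 of 3 h lay apart for Esr1, at 2.93 CPM. At such levels a missing call does not show that a gene stayed the same. Of 7 aryl hydrocarbon receptor genes 2 fell in 50 µM and 3 in vehicle. The called share in 50 µM, 28.6%, is near the 31.1% of all genes. Cyp1a1, its best known target, changed by −1.40 ± 0.26 in 50 µM and −2.74 ± 0.23 in vehicle, a difference of 1.35 ± 0.39 (SE) that was not called (adjusted p = 0.133), and Cyp1b1 was not called in 50 µM (0.46 ± 0.21 SE, adjusted p = 0.115). The receptor's core motif GCGTG stood in both windows of these 2 genes, and in 32.5% of all windows.

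Stress genes showed no single direction. In the integrated stress response list 12 of 34 genes fell and 3 rose in 50 µM, median −0.13, against 17 fallen and 1 risen in vehicle, median −0.26. The called share in 50 µM was 44.1%, beside 31.1% of all genes. Neither edgeR nor DESeq2 called a difference between the treatments in this list, where 5 genes had an unadjusted p under 0.05 in edgeR. Among all 18139 genes edgeR called 107, and 1725 had an unadjusted p under 0.05. Atf3, a transcription factor induced by many stresses, changed by −1.33 ± 0.14, the amino acid carrier Slc7a5 by −0.73 ± 0.09 and Asns, asparagine synthetase, by −0.32 ± 0.08 (SE). Atf4, the factor at the head of this response, rose by 0.29 ± 0.10 (SE, adjusted p = 0.0351), a call lost in 7 of 18 alternatives. Aldh1l2, a mitochondrial folate enzyme, averaged 62.7 ± 12.2 CPM at 24 h and 30.8 ± 7.57 CPM at 3 h (SD, n = 5). The Atf4 targets Ddit3, Trib3 and Chac1 were not called in 50 µM, with changes of −0.13 ± 0.11, −0.35 ± 0.17 and 0.03 ± 0.16 (SE). The composite site TGATGNAA of ATF4 and C/EBP factors stood in 5 of the 13 windows of called members, 38.5%, against 4.06% of all windows. It is not limited to called members, as the windows of Trib3 and Chac1 also hold it, while that of Ddit3 does not. Of 23 chaperones and related genes of the endoplasmic reticulum 12 rose and none fell, against 13 risen in vehicle. The called share of this list in 50 µM was 52.2%, beside 31.1% of all genes. Xbp1, a transcription factor of the unfolded protein response, rose by 0.38 ± 0.07 and Derl3, of the pathway that removes misfolded proteins, by 0.69 ± 0.16 (SE), while the chaperone Hspa5 was not called (0.14 ± 0.07 SE, adjusted p = 0.155).

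Of 16 heat shock genes 7 fell and 2 rose, with Hspa1b, whose reads may be shared with its twin Hspa1a, at −1.25 ± 0.15, Hsp90aa1 at −0.48 ± 0.07 and the collagen chaperone Serpinh1 at 0.39 ± 0.06 (SE). In the p53 list 5 of 27 rose and 7 fell, and Eda2r, a receptor under p53, averaged 6.41 ± 0.609 CPM at 24 h and 3.01 ± 0.789 CPM at 3 h (SD, n = 5). In the NRF2 list 3 of 24 rose, heme oxygenase Hmox1 among them (0.46 ± 0.09 SE), and 5 fell, catalase Cat among them (−0.41 ± 0.06 SE). Of 28 immediate early genes 8 fell and 4 rose, and Klf2, a factor of vessels exposed to flow, was among those that rose (1.08 ± 0.13 SE). In a fit of all 20 libraries 5 of them fell. Of 16 inflammatory mediators 4 rose and 2 fell. Beside 31.1% of all genes, 33.3% of the NRF2 list, 37.5% of the inflammatory mediators, 42.9% of the immediate early genes, 44.4% of the p53 list and 56.2% of the heat shock genes were called, so the share of the NRF2 list is near that of all genes.

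Genes of glycolysis and hypoxia more often fell than rose, and most genes of the respiratory chain were not called. Beside 31.1% of all genes, 53.6% of the glycolysis and hypoxia list were called in 50 µM. The shares were 26.5% for nuclear genes of the respiratory chain and 7.14% for mitochondrial transcripts, both below that of all genes. In the list of glycolysis and the hypoxia response 12 of 28 fell and 3 rose, and 5 rose when replicate 3 of 24 h was left out. The glucose carrier Slc2a1 changed by −0.51 ± 0.07, and the glycolytic enzymes Pgk1 and Pkm by −0.71 ± 0.08 and −0.66 ± 0.08 (SE). Of 34 nuclear genes of the respiratory chain 9 fell in 50 µM, against 3 in vehicle and 16 in 10 µM, with Atp5b, a subunit of ATP synthase, at −0.40 ± 0.06 (SE) in 50 µM. Neither edgeR nor DESeq2 called the difference between 50 µM and vehicle for any of the 34, and 1 had an unadjusted p under 0.05 in edgeR. Among all 18139 genes edgeR called 107, and 1725 had an unadjusted p under 0.05. The number that fell in 50 µM was 15 without replicate 1 of 24 h and 15 without replicate 3 of 3 h. Of 14 transcripts encoded in mitochondria 1 rose, mt-Co1 (0.29 ± 0.09 SE, adjusted p = 0.0253), with overlapping groups, and the ribosomal RNA mt-Rnr1 averaged 783.6 ± 114 CPM at 24 h and 861.5 ± 126 CPM at 3 h (SD, n = 5).

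Besides genes named above, the protein-coding genes with the largest rises in 50 µM, among those with a mean count of at least 50 and groups that do not overlap, included Slc13a5, a citrate carrier of bone and liver, at 2.55 ± 0.22, the calcium-binding protein S100b at 2.58 ± 0.21, and Clec3b, tetranectin, at 2.90 ± 0.34 (SE). Slc13a5 rose by 4.14 ± 0.29 in vehicle, and its difference of −1.59 ± 0.37 (SE) was called (adjusted p = 0.0459), but not in 17 of 28 alternatives, over which the adjusted p was 0.00316 to 0.111. Those with the largest falls included the homeobox genes Dlx2, at −3.79 ± 0.42, and Hoxc13, at −2.30 ± 0.27, and Sp9, a zinc finger factor of the apical ridge, at −2.44 ± 0.29 (SE). In vehicle these 3 changed by −2.37 ± 0.39, −1.68 ± 0.47 and −1.62 ± 0.35 (SE), and none of the 3 differences was called by edgeR (adjusted p = 0.462, 0.821 and 0.651). The unadjusted p of Dlx2 was 0.0339, and those of Hoxc13 and Sp9 were 0.303 and 0.105.

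The genes with the smallest p in the test of the difference, beyond sterol and muscle genes, included Vim. Vimentin, the intermediate filament of mesenchymal cells, was at 719.2, 660.5, 702.5, 716.3 and 729.9 CPM in 50 µM at 24 h and at 953.0, 994.7, 1022, 985.7 and 992.2 CPM at 3 h. In vehicle it averaged 1026 ± 59.5 CPM at 24 h and 1013 ± 46.2 CPM at 3 h (SD, n = 5). The 24 h libraries of 50 µM lay below all other libraries, and the difference of −0.51 ± 0.07 (SE) was called (adjusted p = 0.0005). Sox11, a factor of immature mesenchyme, changed by −0.47 ± 0.06 in 50 µM and −0.89 ± 0.07 in vehicle, a called difference of 0.42 ± 0.09 (SE, adjusted p = 0.0377). The splicing factor Srsf3 also had a called difference (0.34 ± 0.07 SE). Of the 93 genes with a lower change in 50 µM, 37 rose in both treatments, 34 rose in vehicle and were not called in 50 µM, and 13 rose in vehicle and fell in 50 µM.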

How the data were processed

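Poly-A RNA of cultured mouse forelimb buds was sequenced, per the labels' protocols. The authors deposited tables of whole-number read counts per gene, and genome build mm10, CASAVA 1.8, STAR 2.5, HTSeq 0.6.1 and DESeq2 2 are named, without roles, per the submitters' processing notes. Whether counting used strand is unstated in the sources, which leaves genes that overlap on opposite strands uncertain. There are 30679 genes listed at 24 h and 31290 at 3 h. Gene identifiers joined the tables, and 24 symbols that had become dates were restored.

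Counts were tested with edgeR 4.0.16 in R 4.3.3: TMM factors, filterByExpr with a minimum count of 10 and a minimum total of 15, the quasi-likelihood test and Benjamini-Hochberg adjustment over all genes at 0.05. The 50 µM time change, the vehicle and the 10 µM time change each used their own 10 libraries, and the difference between 50 µM and vehicle used 20. Standard errors are the absolute log2 change divided by the root of the F statistic. CPM are scaled with TMM factors over the 20 libraries, and summed shares of reads are sums of these CPM, not raw fractions of reads. The fits were tested on simulated data. Every pair of replicates was further apart than counting error allows (chi-square per degree of freedom at least 6.36). Replicate numbers were not used as pairs.

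The 40 gene lists, the genes named and the tests were chosen with earlier results of these data known. Named are the 12 protein-coding genes with the largest rises and falls among those called with a mean count of at least 50 and no overlap, up to 4 called members of each list, a fixed set, and genes of smallest p in the test of the difference, with some left out. Ccnb2, Cdk1, Prrx1 and Adipoq were chosen after their values were seen. Promoter windows are RefSeq's. Alternatives were DESeq2 1.42.0, other scaling factors, filters, fits, a replicate block, an epidermal covariate and leaving out each library. The reads come from PCR and carry no molecular identifiers, so they do not count molecules.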

Additional observations from a re-analysis of the deposited data

Results flagged for a closer look

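In 28 named genes the change over the hours differed between 50 µM and vehicle in the test of the difference. It was lower in 50 µM, on the log2 scale, for the sterol genes Idi1 (−1.01), Insig1 (−0.92), Nsdhl (−0.89), Dhcr7 (−0.79), Fdft1 (−0.77), Lss (−0.76), Cyp51 (−0.72), Sqle (−0.55) and Hmgcs1 (−0.51) and for the desaturase Scd1 (−0.72). It was lower for the muscle genes Itgb1bp2 (−1.25), Klhl40 (−1.23), Mylpf (−0.96), Mybph (−0.81), Acta1 (−0.77), Mymk (−0.76) and Tnnt2 (−0.63). The same direction was found for Slc13a5 (−1.59), Aplnr (−1.07), Id1 (−0.75), Csf1r (−0.73) and Vim (−0.51). The change was higher in 50 µM for Rspo2 (1.30), Nog (0.77), Fgf10 (0.72), Tgfb2 (0.43), Sox11 (0.42) and Srsf3 (0.34).

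A single library stood apart from the other 4 of its group in 15 of 270 sets of 5 values, where chance alone flags about 1 in 20. At 24 h in 50 µM, replicate 1 was high for Pth1r (174 CPM) and Cdkn1a (99.0 CPM), replicate 3 was high for Tpx2 (70.5 CPM) and Krt10 (93.0 CPM), and replicate 5 was high for Gpnmb (52.0 CPM). Replicate 4 of that group was high for Mylpf (189 CPM) and Cyp26a1 (4.98 CPM) and low for Gli1 (117 CPM). At 3 h in 50 µM, replicate 3 was high for Ibsp (4.36 CPM) and Smpd3 (19.0 CPM) and low for Mylpf (94.1 CPM) and Pgk1 (222 CPM), replicate 4 was high for Esr1 (2.93 CPM), and replicate 5 was low for Fgf10 (18.1 CPM) and Mymk (17.1 CPM).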

How the results depend on the processing

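The number of genes called in the 50 µM time change, 5244, was 4394 to 5326 with each library left out in turn, 5646 with DESeq2, 4942 without the filter on low counts, 5195 with a stricter filter and 5099 with the epidermal covariate. Upper-quartile factors gave 47.0% of calls as higher, against 50.0%. In vehicle the number was 4353 to 5055 with each library left out, beside 5131. The number of genes with a called difference, 107, was 63 to 157 with each library left out, 266 with DESeq2, 147 with the epidermal covariate and 126 with the 10 µM libraries in the fit, and the cause was not tested. With the replicate number as a block the 3 counts were 4983, 4312 and 105. Same-numbered libraries of 50 µM at 24 h and 3 h correlated at −0.051 to 0.158 in their deviations from the group means, and those of vehicle at −0.097 to 0.115. Between 50 µM and vehicle at one time the correlation was 0.034 to 0.261 at 24 h, over 0.1 for 4 of 5 numbers, and 0.051 to 0.159 at 3 h, over 0.1 for 3 of 5. At 24 h 4 of the 5 libraries of 50 µM correlated best with their own number, and at 3 h 3 of 5 did, a hint from the data that some libraries of a number deviate together. No label ties the numbers to a litter or a day and not every pair was over 0.1, so the block is an alternative only. Under the block the difference was called for Col10a1 (adjusted p = 0.0108) and Cyp1a1 (adjusted p = 0.0232). Of 135 named genes, 116 were called in the 50 µM time change, and 111 of these kept their call in every alternative. Of 18 alternatives, Gdf5, Atf4 and Srsf3 lost it in 7, mt-Co1 in 5 and Srebf1 in 2. Tnmd gained a call in 7, Cyp1b1 in 2, and Hspa5, Trib3 and Lss in 1 each. Of 28 genes with a called difference 9 lost it in at least 1 of 28 alternatives (Slc13a5 and Tnnt2 in 17, Mymk in 16, Mybph in 14, Sox11 in 10, Csf1r and Nog in 9, Srsf3 in 3 and Tgfb2 in 1), while 6 gained one (Sox9, Xbp1, Srebf1, Gli1, Cyp1a1 and Col10a1). No named gene with a call reversed. Genes at low level, such as the estrogen receptors near 1 CPM, rest on few reads, and a missing call there does not show the absence of a difference.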
